A study of Homo sapiens with 4 samples.

Results

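Forkhead and SOX genes encode 2 large families of transcription factors, and their messenger RNA was examined in FaDu cells, an established line from a squamous carcinoma of the hypopharynx. The members were taken from the rows of the deposited expression table whose symbol is FOX followed by a subclass letter from A to S and a number, or SOX followed by a number, without a hyphen. Of 25548 gene symbols, 68 are members, 50 of them forkhead and 18 SOX genes. The Aza/TSA library came from FaDu cells given 5 µM Aza (5-aza-2'-deoxycytidine), which inhibits DNA methylation once built into DNA, on days 1 to 3 and 100 nM trichostatin A (TSA), a histone deacetylase inhibitor, on day 3. The DMSO library came from FaDu cells labelled as given DMSO only, and the protocol also names ethanol as the vehicle of TSA. With 1 library for each condition, the differences below carry no replicate check, and no test was made. All values come from cells of 1 line in culture, and Aza and TSA were given together.

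Forkhead proteins bind DNA through a winged-helix domain, and subclasses A to S are defined by its sequence. FOXA proteins act as pioneer factors that can bind compacted chromatin, FOXO proteins are held in the cytoplasm when AKT phosphorylates them, and FOXM1 drives the genes of mitosis. SOX proteins bind and bend DNA through an HMG box. Their groups include SOXB1, which marks neural progenitors, SOXE, which acts in cartilage, testis and neural crest, and SOXF, which acts in endothelium. Many members of both families are silent outside 1 lineage, while a few are used by most dividing cells. In stratified epithelia FOXN1 acts in keratinocyte differentiation and SOX9 in hair follicle stem cells.

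Expression is in FPKM (fragments per kilobase of transcript scaled to the mapped fragments of the library), which are per length and so can be compared between genes. The columns sum to 516692 FPKM in the Aza/TSA library and 491963 FPKM in the DMSO library, and the number of reads is not given, so depth is unknown. All 9 squamous epithelial markers examined were above 1 FPKM in both libraries. They summed to 615 FPKM in the Aza/TSA library and 1048 FPKM in the DMSO library. The basal keratin KRT5, the largest part of the DMSO sum, was at 226 FPKM in the Aza/TSA library and 687 FPKM in the DMSO library. The markers did not move as a set. KRT14 was at 147 FPKM (Aza/TSA) and 49.8 FPKM (DMSO), and KRT6A and CDH1 also had higher values in the Aza/TSA library, while the others had lower values. Of markers of other cell types, 2 of 8 fibroblast, 3 of 9 leukocyte and 1 of 7 endothelial genes reached 1 FPKM, with summed levels of 5.35, 57.8 and 3.89 FPKM in the Aza/TSA library, against 0.882, 15.01 and 0.943 FPKM in the DMSO library. CD68, a lysosomal protein, made up 51.3 FPKM of the leukocyte sum in the Aza/TSA library and 12.98 FPKM in the DMSO library. The others that reached 1 FPKM were COL1A1, THY1, CD3D, CD14 and CDH5. All of them had higher values in the Aza/TSA library, CD14 at 4.59 FPKM (Aza/TSA) and 1.62 FPKM (DMSO). THY1 and CD3D were at 1.55 and 1.33 FPKM in the Aza/TSA library and listed at 0 in the DMSO library. The pan-leukocyte gene PTPRC stood at 0.0385 FPKM in the Aza/TSA library and 0.0513 FPKM in the DMSO library, and PDGFRA, KDR, TIE1 and CLDN5 were listed at 0 in both. The part of other cell types in the differences was not tested. The 2 columns of UMSCC47, the other line of the study, are outside the rule and were not used, and their values did not follow the gene names. Their rank correlation with the FaDu columns was 0.110 to 0.121 across 25593 rows, against 0.908 between the FaDu columns.

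Of the 68 members, 28 reached 1 FPKM in at least 1 library and are called measured, 21 forkhead and 7 SOX genes. Of these, 3 were at least 2-fold higher in the Aza/TSA library (FOXJ1, FOXP4 and SOX15), 2 were at least 2-fold lower (FOXA1 and FOXN3) and 23 lay within 2-fold, on the log2(FPKM + 1) scale. Among all 13558 measured genes 16.1% were at least 2-fold higher and 5.21% at least 2-fold lower, against 10.7% and 7.14% of the measured members. With counts of 3 and 2, these shares do not set the members apart from the background. The median log2 change of the measured members was -0.14, against 0.13 for all measured genes. Values were above those of the DMSO library in 12 of 28 members, and in 56.0% of all measured genes. FOXJ1 and SOX12 counted as measured only through the Aza/TSA library, and SOX1 and FOXO4 only through the DMSO library. The direction of these members was therefore fixed by the 1 FPKM limit, and the higher call of FOXJ1 is no independent result. On a TPM scale, where all values are larger and the pseudocount and the 1 FPKM limit weigh less, 9 of 36 measured members were higher and 4 lower, against 17.9% and 7.71% of all genes measured on that scale. The median of the measured members was 0.12 on the TPM scale, against 0.10 for all measured genes. Without the 1 FPKM limit the member median was 0.015, against 0 for all gene symbols. Which of the 2 medians was lower thus depended on the setting. In RNA from a whole culture, fewer cells that express a gene and less of its RNA per cell cannot be told apart.

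**Figure D1:**
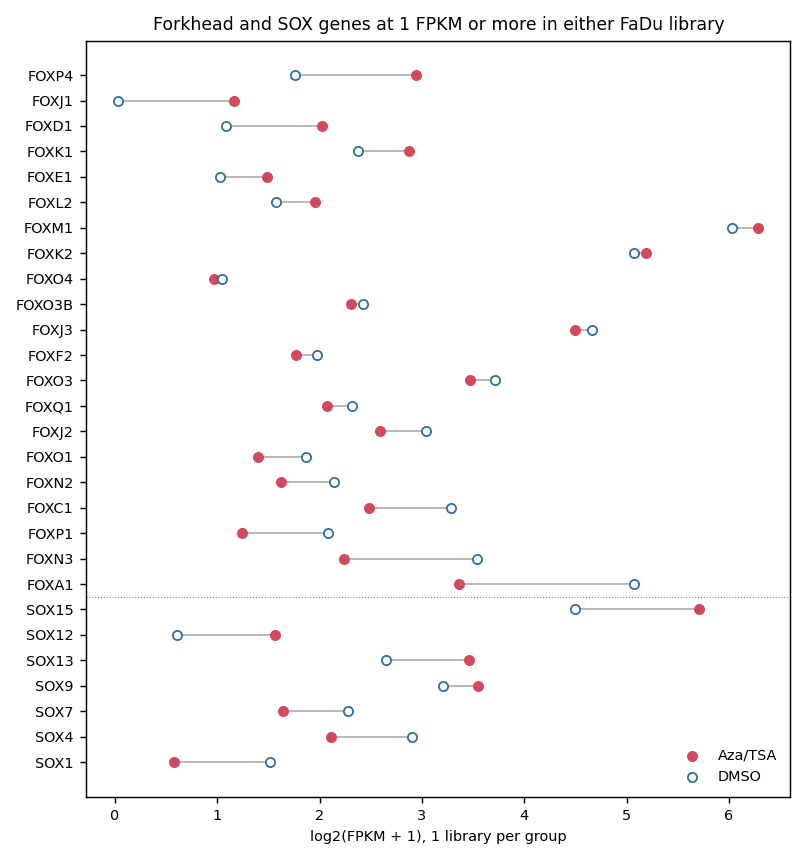
Level of the 28 measured members in the Aza/TSA library (filled) and the DMSO library (open), as log2(FPKM + 1), with 1 library per group and forkhead genes above SOX genes. FOXM1 is highest in both libraries (77.2 FPKM in the Aza/TSA library and 64.2 FPKM in the DMSO library), and FOXA1 shows the widest difference.

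The 250 bases before the annotated RefSeq start are shown for FOXP4, FOXA1 and FOXN3, which were among the 5 members at least 2-fold apart, since Aza acts on methylation at CpG sites. Capitals mark each CpG. DNA methylation was not measured here, so the bases describe the promoters only. FOXJ1 and SOX15 are not shown. The windows lie on GRCh38.p14, each read along the gene's strand: chr6:41546131-41546380 on the plus strand for FOXP4, chr14:37595250-37595499 on the minus strand for FOXA1 and chr14:89619166-89619415 on the minus strand for FOXN3.
FOXP4: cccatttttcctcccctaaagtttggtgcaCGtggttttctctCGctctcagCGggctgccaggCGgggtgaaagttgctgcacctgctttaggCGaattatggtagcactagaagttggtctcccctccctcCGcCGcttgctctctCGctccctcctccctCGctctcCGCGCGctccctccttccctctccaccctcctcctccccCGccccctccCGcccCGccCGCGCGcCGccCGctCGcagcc
FOXA1: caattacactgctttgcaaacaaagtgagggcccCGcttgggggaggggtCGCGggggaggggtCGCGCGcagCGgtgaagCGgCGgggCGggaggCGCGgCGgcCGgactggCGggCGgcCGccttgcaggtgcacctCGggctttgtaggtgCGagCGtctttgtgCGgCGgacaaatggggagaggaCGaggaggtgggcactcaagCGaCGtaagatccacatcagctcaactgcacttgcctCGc
FOXN3: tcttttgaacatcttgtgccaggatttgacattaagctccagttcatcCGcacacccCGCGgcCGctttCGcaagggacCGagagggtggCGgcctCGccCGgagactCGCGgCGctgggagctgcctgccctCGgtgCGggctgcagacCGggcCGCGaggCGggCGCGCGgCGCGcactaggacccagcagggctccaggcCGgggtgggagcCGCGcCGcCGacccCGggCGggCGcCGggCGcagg
The windows hold 21 CpG for FOXP4, 26 for FOXA1 and 33 for FOXN3. No window was found for FOXJ1 and SOX15, so these counts cannot be set against the direction of change.

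SOX15, the only SOXG gene, was the second most abundant member in the Aza/TSA library. It stood at 51.3 FPKM in the Aza/TSA library and 21.6 FPKM in the DMSO library, a log2 change of 1.21. It supplied 62.5% of the summed SOX FPKM in the Aza/TSA library and 44.9% in the DMSO library. In mouse, SOX15 takes part in muscle regeneration and trophoblast giant cells. Summed over the 18 SOX members the level was 82.0 FPKM in the Aza/TSA library and 48.1 FPKM in the DMSO library, and without SOX15 it was 30.7 FPKM in the Aza/TSA library and 26.5 FPKM in the DMSO library. The difference of the SOX sum was therefore mostly that of SOX15.

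FOXP4, a repressor that acts in lung and gut epithelium, stood at 6.70 FPKM in the Aza/TSA library and 2.38 FPKM in the DMSO library, a log2 change of 1.19. Its relative FOXP1, which acts in lymphocytes and lung, went the other way, at 1.36 FPKM in the Aza/TSA library and 3.24 FPKM in the DMSO library. Its log2 change of -0.84 lay within 2-fold on the log2(FPKM + 1) scale, while the plain ratio was 2.38-fold lower. The FOXP genes thus differed in direction. FOXP3, the factor of regulatory T cells, was at 0.519 and 0.230 FPKM in the Aza/TSA and DMSO libraries, and FOXP2, known for its role in speech circuits, at 0.0193 FPKM (Aza/TSA) and 0.155 FPKM (DMSO).

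FOXJ1 was near 0 in the DMSO library. This factor, which switches on the genes of motile cilia, was at 1.25 FPKM in the Aza/TSA library and 0.0244 FPKM in the DMSO library, with a log2 change of 1.13. Among the 31 members under 0.1 FPKM in the DMSO library, FOXJ1 alone reached 1 FPKM in the Aza/TSA library. Among all genes 524 of 9984 did so, or 5.25%.

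FOXA1, the pioneer factor of luminal and foregut-derived epithelia, had the lowest log2 change of all measured members, at -1.71. It stood at 9.29 FPKM in the Aza/TSA library and 32.7 FPKM in the DMSO library, where it was the second most abundant member. FOXA2, which patterns endoderm, was at 0.324 and 0.108 FPKM in the Aza/TSA and DMSO libraries, and FOXA3, a liver factor, was at 0.467 FPKM and listed at 0. The FOXA genes summed to 10.1 FPKM in the Aza/TSA library and 32.8 FPKM in the DMSO library, nearly all of it FOXA1. FOXN3, a repressor first described as a checkpoint suppressor, stood at 3.72 FPKM in the Aza/TSA library and 10.6 FPKM in the DMSO library, a log2 change of -1.30. FOXN2 was also lower in value, at 2.07 FPKM (Aza/TSA) and 3.42 FPKM (DMSO), with a log2 change of -0.52 that lay within 2-fold and was 0.15 after GC correction. FOXN1 was under 1 FPKM in both libraries, at 0.167 FPKM (Aza/TSA) and 0.143 FPKM (DMSO).

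Several members lay just inside the 2-fold limits on the log2(FPKM + 1) scale. As plain ratios of FPKM, SOX12 (3.74-fold higher), FOXD1 (2.73-fold higher) and SOX1 (3.76-fold lower) were past 2-fold. With a pseudocount of 0.1 these members were past 2-fold as well. SOX12, a SOXC gene, was at 1.96 FPKM in the Aza/TSA library and 0.525 FPKM in the DMSO library (log2 change 0.96). FOXD1, a factor of kidney stroma, was at 3.07 and 1.12 FPKM in the Aza/TSA and DMSO libraries (0.94, and -0.02 after the GC correction described below), and SOX13, a SOXD gene, at 10.0 FPKM (Aza/TSA) and 5.28 FPKM (DMSO), a log2 change of 0.81. These had the highest changes of the members within 2-fold. On the other side, SOX1, a factor of neural progenitors, was at 0.493 FPKM in the Aza/TSA library and 1.85 FPKM in the DMSO library (-0.93). FOXC1, a factor of eye and skull development, was at 4.59 FPKM (Aza/TSA) and 8.73 FPKM (DMSO), a log2 change of -0.80, and SOX4, a SOXC gene of progenitor cells, at 3.32 FPKM (Aza/TSA) and 6.47 FPKM (DMSO), a log2 change of -0.79. SOX4 and SOX12, of the same group, thus pointed in opposite directions. SOX11, the other SOXC gene, was listed at 0 in both libraries. SOX7, a SOXF gene, was at 2.11 and 3.85 FPKM in the Aza/TSA and DMSO libraries (-0.64).

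FOXM1, FOXK2 and FOXJ3, among the most abundant forkhead genes beside FOXA1, lay well within 2-fold. FOXM1 stood at 77.2 FPKM in the Aza/TSA library and 64.2 FPKM in the DMSO library, the highest member in both, with a log2 change of 0.26 that was -0.26 after GC correction. It made up 36.5% of the summed forkhead FPKM in the Aza/TSA library and 28.1% in the DMSO library. FOXK2, which with FOXK1 regulates autophagy and glycolysis genes, was at 35.5 FPKM (Aza/TSA) and 32.6 FPKM (DMSO), with a log2 change of 0.12 and of -0.40 after GC correction. FOXK1 was at 6.32 FPKM in the Aza/TSA library and 4.20 FPKM in the DMSO library (0.49, and -0.12 after GC correction). The widely expressed FOXJ3 and FOXJ2 pointed the other way, FOXJ3 at 21.6 FPKM (Aza/TSA) and 24.4 FPKM (DMSO), a log2 change of -0.17, and 0.08 after GC correction and FOXJ2 at 5.04 FPKM (Aza/TSA) and 7.21 FPKM (DMSO), a log2 change of -0.44. All 50 forkhead members summed to 211 FPKM in the Aza/TSA library and 228 FPKM in the DMSO library. With 1 library per group, the order of members this close in level cannot be told from library error.

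The FOXO genes act downstream of insulin and growth factor signalling. The 4 measured had lower values in the Aza/TSA library, which for FOXO4 was fixed by the 1 FPKM limit. FOXO3 stood at 10.1 FPKM in the Aza/TSA library and 12.1 FPKM in the DMSO library, a log2 change of -0.24. FOXO1 was at 1.63 FPKM (Aza/TSA) and 2.66 FPKM (DMSO), a log2 change of -0.47 and FOXO4 at 0.959 FPKM (Aza/TSA) and 1.06 FPKM (DMSO), a log2 change of -0.07. All 3 differences were within 2-fold. FOXO3B, on chromosome 17, is a near-identical copy of FOXO3, so its 3.95 FPKM in the Aza/TSA library and 4.36 FPKM in the DMSO library may hold reads of FOXO3. FOXO6 was higher in value in the Aza/TSA library, at 0.991 FPKM (Aza/TSA) and 0.480 FPKM (DMSO), but just missed the 1 FPKM limit. The FOXO genes thus did not share 1 direction.

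SOX9, the cartilage and testis factor, stood at 10.7 FPKM in the Aza/TSA library and 8.20 FPKM in the DMSO library, a log2 change of 0.34. The other SOXE genes were under 1 FPKM, SOX10 at 0.560 FPKM in the Aza/TSA library and listed at 0 in the DMSO library, and SOX8 at 0.0209 FPKM and listed at 0. Of the remaining measured forkhead genes, FOXE1, a thyroid factor, was at 1.81 and 1.04 FPKM in the Aza/TSA and DMSO libraries (0.46). FOXL2, the factor of ovarian granulosa cells, was at 2.87 FPKM (Aza/TSA) and 1.98 FPKM (DMSO), a log2 change of 0.38. Both were a little higher in the Aza/TSA library, and below 0 after GC correction, at -0.31 and -0.53. FOXQ1, which acts in mouse hair, was at 3.21 FPKM (Aza/TSA) and 3.998 FPKM (DMSO), a log2 change of -0.25, and FOXF2, a factor of gut mesenchyme, at 2.40 FPKM (Aza/TSA) and 2.93 FPKM (DMSO), a log2 change of -0.21.

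**Figure D2:**
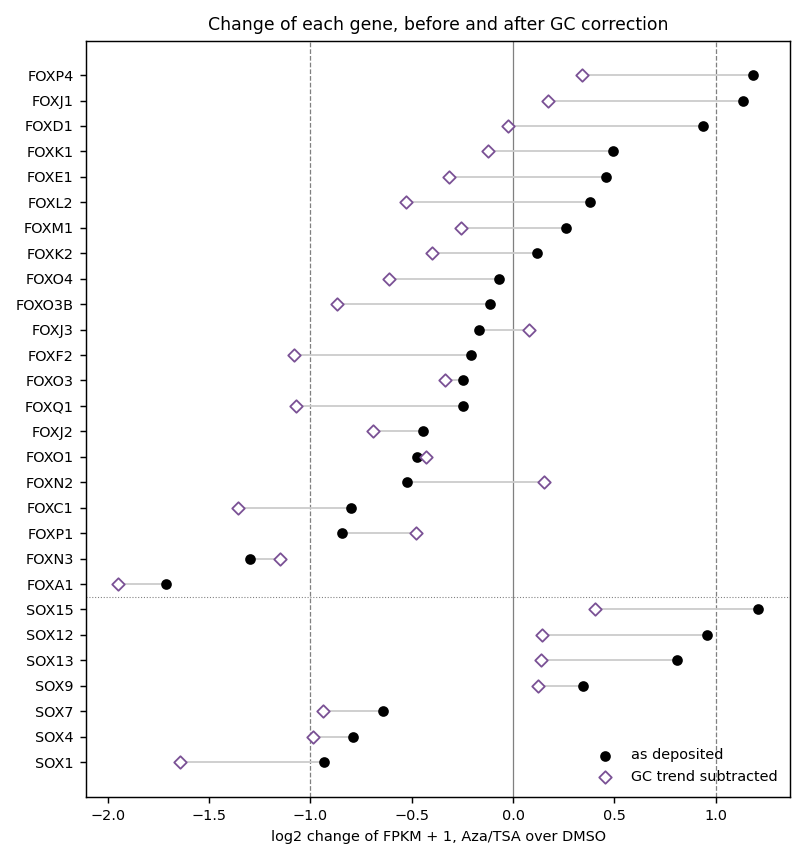
Log2 change of FPKM + 1, Aza/TSA over DMSO, of the 28 measured members as deposited (circles) and after the trend on transcript GC content was subtracted (diamonds). Dashed lines mark 2-fold. As deposited FOXP4, FOXJ1 and SOX15 lie to the right of the upper line, and after correction no member does.

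The change of a gene moved with the GC content of its transcript. Across the 7123 genes that reached 5 FPKM in both libraries the Spearman correlation was 0.68, and across the 28 measured members it was 0.64, with all points from the same 2 libraries. The median GC content was 56.1% for the measured members and 48.8% for all measured genes. Of the 17 measured members at 55% GC or more, 11 had higher values in the Aza/TSA library, and of the 11 members under 55% GC, 1 did. Members under 55% GC thus mostly had lower values in the Aza/TSA library. Among them FOXA1, FOXJ2, FOXO3, SOX4 and SOX7 had a GC content above the 48.8% median of all measured genes. At their GC content the trend fitted below was above 0 (0.24 for FOXA1), so their lower values did not follow it. The median log2 change was 0.38 for the 17 and -0.52 for the 11, against 0.78 and -0.13 for all measured genes on the same sides of 55%. At either GC level the members' median lay below that of all genes.

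When the GC trend was subtracted, 0 members were at least 2-fold higher and 6 were at least 2-fold lower, against 7.41% and 4.26% of the 12520 measured genes with a GC value. The corrected values of SOX15, FOXP4 and FOXJ1 were 0.40, 0.34 and 0.17, above 0 but within 2-fold. The trend was fitted over more abundant genes only, and was subtracted in full from genes at low levels. The log2(FPKM + 1) scale already understates the change of low genes, so for them the subtracted trend may be too large. With a pseudocount of 0.1 FOXJ1 had an uncorrected log2 change of 3.435, against a trend of 0.96 at its GC content. Its corrected call is therefore uncertain. FOXA1 and FOXN3 remained lower, at -1.95 and -1.15. They were joined by SOX1 (-1.64), FOXC1 (-1.36), FOXF2 (-1.08) and FOXQ1 (-1.07). The same limit holds for SOX1, FOXF2 and FOXQ1, which were at low levels in both libraries. The corrected median was -0.41 for the measured members and 0.02 for all measured genes, and 20 of 28 members were below 0. The part of GC content in these differences was not tested beyond this correction.

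**Figure D3:**
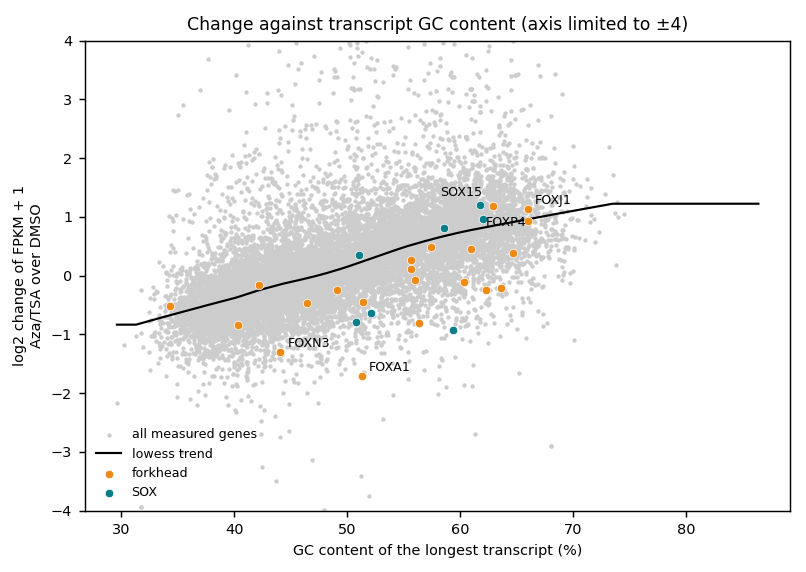
Log2 change of FPKM + 1, Aza/TSA over DMSO, against the GC content of the longest transcript in percent, for all measured genes (grey), forkhead genes (orange) and SOX genes (teal), with the lowess trend. The axis is limited to 4 on either side, which leaves 146 genes outside. SOX15, FOXP4 and FOXJ1 lie close above the trend, and FOXA1 and FOXN3 lie below it.

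The other 40 members were under 1 FPKM in both libraries, 24 of them with a higher value in the Aza/TSA library, 10 with a lower value and 6 listed at 0 in both. The same shares over all genes under 1 FPKM were not counted, so these numbers do not set the members apart. FOXI1, the factor of ionocytes and intercalated cells, was at 0.725 FPKM in the Aza/TSA library and 0.0659 FPKM in the DMSO library. SOX30, a factor of round spermatids, was at 0.720 FPKM (Aza/TSA) and 0.0584 FPKM (DMSO), and SOX18, an endothelial factor, at 0.436 FPKM (Aza/TSA) and 0.0397 FPKM (DMSO). These 3 stood apart between the libraries but stayed below the level counted as measured, and the number of reads behind their values is unknown. FOXR1 was at 0.565 FPKM in the Aza/TSA library and listed at 0 in the DMSO library. FOXD2 was at 0.759 and 0.373 FPKM in the Aza/TSA and DMSO libraries, FOXB1 at 0.380 FPKM (Aza/TSA) and 0.0475 FPKM (DMSO), FOXC2 at 0.302 FPKM (Aza/TSA) and 0.0403 FPKM (DMSO), FOXI3 at 0.282 FPKM (Aza/TSA) and 0.113 FPKM (DMSO) and the endoderm factor SOX17 at 0.250 FPKM (Aza/TSA) and 0.0832 FPKM (DMSO). All of these were higher in value in the Aza/TSA library.

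FOXL1, a factor of gut mesenchyme, and FOXD3, a neural crest factor, went against them. FOXL1 was at 0.339 FPKM in the Aza/TSA library and 0.658 FPKM in the DMSO library, and FOXD3 at 0.272 FPKM (Aza/TSA) and 0.383 FPKM (DMSO). FOXD4 and its 6 copies FOXD4L1 to FOXD4L6 reached at most 0.133 FPKM in the Aza/TSA library and 0.141 FPKM in the DMSO library. These copies are near-identical, so the share of each is uncertain, and FOXD4L2 and FOXD4L4 have the same values. FOXS1 and FOXE3 were at 0.107 and 0.0670 FPKM in the Aza/TSA library, and FOXI2 and FOXN4 at 0.02002 and 0.0189 FPKM, all listed at 0 in the DMSO library. SOX6, SOX21, FOXF1 and FOXH1 were under 0.1 FPKM in both libraries. FOXB2, FOXR2, SOX3, SOX5, SOX11 and SOX14 were listed at 0 in both. Of the 31 members under 0.1 FPKM in the DMSO library, 11 stood between 0.1 and 1 FPKM in the Aza/TSA library, and 19 stayed under 0.1 FPKM. Over all genes under 0.1 FPKM in the DMSO library 18.4% stood between 0.1 and 1 FPKM in the Aza/TSA library. The shares are not like for like, since 54.7% of those genes were listed at 0 in both libraries, against 6 of the 31 members.

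**Figure D4:**
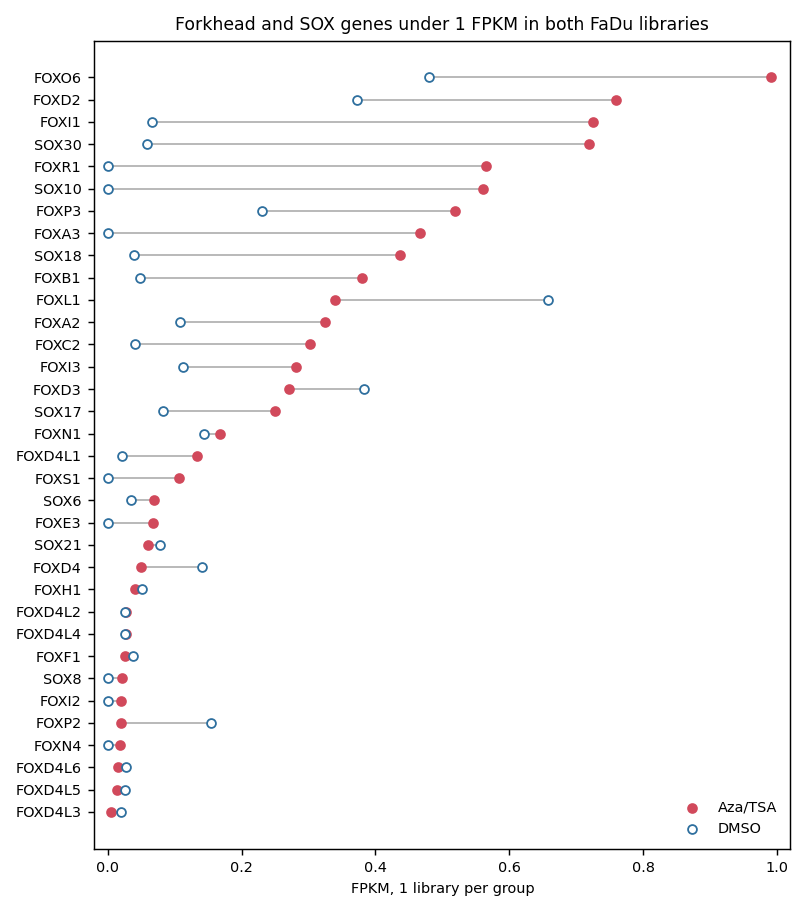
FPKM of the 34 members that were under 1 FPKM in both libraries and above 0 in at least 1, in the Aza/TSA library (filled) and the DMSO library (open), 1 library per group. FOXI1 and SOX30 stand at 0.725 and 0.720 FPKM in the Aza/TSA library and under 0.1 FPKM in the DMSO library, while FOXL1 is higher in the DMSO library.

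Genes known as targets, partners or lineage companions of single members were then counted, on the log2(FPKM + 1) scale. The counts are to be read against the 16.1% and 5.21% of all measured genes that were higher and lower. For counts after GC correction these shares were 7.41% and 4.26%, among genes with a GC value. Genes measured only through the Aza/TSA library could not be called lower. The counts of higher genes are thus partly fixed by the 1 FPKM limit. Among these genes were MUC2, CAPS, COL9A2, NES, GSC, CATSPER1, ATP6V1C2, CD3D and CD40. CCDC39 and IKZF2, measured only through the DMSO library, could not be called higher. For genes at low levels, such as NES, ESAM and CD3D, the subtracted GC trend may be too large, as described above. Their calls after GC correction are therefore uncertain. Of 27 FOXO target genes 21 were measured, of which 2 were at least 2-fold higher and 3 at least 2-fold lower (median log2 change -0.31). After GC correction 2 were higher and 5 lower. IRS2 (-1.21) and BBC3 (-1.04) were lower only after the correction, and both were at low levels, so these calls are uncertain. The cell cycle inhibitor CDKN1A was at 66.1 FPKM in the Aza/TSA library and 16.2 FPKM in the DMSO library, and the mitophagy kinase PINK1 at 15.9 FPKM (Aza/TSA) and 3.52 FPKM (DMSO). The death ligand TNFSF10 was lower, at 9.25 FPKM (Aza/TSA) and 50.3 FPKM (DMSO), as was the stress gene GADD45A, at 49.6 FPKM (Aza/TSA) and 157 FPKM (DMSO), and the catalase gene CAT, at 7.67 FPKM (Aza/TSA) and 19.4 FPKM (DMSO). FOXO targets thus lay on both sides. All 15 FOXO regulators lay within 2-fold, the kinase AKT1 at 45.8 and 25.2 FPKM in the Aza/TSA and DMSO libraries. Of 20 FOXM1 target genes, all measured, 1 was at least 2-fold lower and none higher (median log2 change 0.02). That gene was the kinetochore gene CENPF, at 19.6 FPKM (Aza/TSA) and 40.2 FPKM (DMSO), and the anaphase activator CDC20 was at 112 FPKM (Aza/TSA) and 68.4 FPKM (DMSO), within 2-fold. CENPF was within 2-fold after GC correction.

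Of 17 FOXA partners and targets 10 were measured, with 3 at least 2-fold higher and 1 lower (median -0.19). The intestinal mucin gene MUC2 was at 9.81 FPKM in the Aza/TSA library and 0.0353 FPKM in the DMSO library. The simple epithelial keratins KRT8 and KRT18 were at 1356 and 1235 FPKM in the Aza/TSA library, against 459 and 514 FPKM in the DMSO library. The secretory factor XBP1 was lower, at 34.4 FPKM (Aza/TSA) and 79.7 FPKM (DMSO). The FOXA partners GRHL2, TFAP2A, TFAP2C and GATA3 lay within 2-fold. After GC correction KRT18 was within 2-fold, while MUC2, KRT8 and XBP1 were not. Of 21 motile cilium genes 5 were measured, 1 higher (the calcium-binding protein gene CAPS, 2.39 FPKM in Aza/TSA and 0.225 FPKM in DMSO) and 1 lower (the axoneme gene CCDC39, 0.130 FPKM in Aza/TSA and 1.40 FPKM in DMSO). The other 3 measured genes, the RFX factors RFX2 and RFX3 and the cyclin-like gene CCNO, lay within 2-fold, and none of the 5 was past 2-fold after GC correction.

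Lists of lineages in which single members act were mostly under 1 FPKM. Of 17 endothelial genes 4 were measured and all 4 were at least 2-fold higher, EGFL7 at 19.3 FPKM in the Aza/TSA library and 5.13 FPKM in the DMSO library, ENG at 9.88 FPKM (Aza/TSA) and 3.65 FPKM (DMSO), CDH5 at 2.85 FPKM (Aza/TSA) and 0.743 FPKM (DMSO) and ESAM at 2.11 FPKM (Aza/TSA) and 0.143 FPKM (DMSO). CDH5 and ESAM counted as measured only through the Aza/TSA library, where they were high, so the count of 4 is partly fixed by the limit of 1 FPKM. None of the 4 was 2-fold higher after GC correction. Over all 17 endothelial genes the median log2 change was 0.09. Of 19 melanocyte and glial genes 7 were measured, 2 higher and 1 lower, with NGFR at 7.90 FPKM (Aza/TSA) and 1.91 FPKM (DMSO), PMEL at 3.98 FPKM (Aza/TSA) and 1.03 FPKM (DMSO) and EGR2 at 11.2 and 27.8 FPKM in the Aza/TSA and DMSO libraries. After GC correction NGFR and PMEL were within 2-fold and EGR2 was still lower. Of 15 cartilage genes 3 were measured and 1 was higher, COL9A2 at 3.78 FPKM (Aza/TSA) and 0.0227 FPKM (DMSO), while COL9A3 was at 1.67 FPKM (Aza/TSA) and 1.70 FPKM (DMSO). The growth factor receptor gene FGFR3 was at 11.3 FPKM (Aza/TSA) and 9.90 FPKM (DMSO). After GC correction COL9A2 was still higher, and COL9A3 was past 2-fold lower (-1.03), which is uncertain at its low level.

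Of 19 neural progenitor and neuron genes 5 were measured and 2 were higher, TUBB3 at 20.1 FPKM in the Aza/TSA library and 6.71 FPKM in the DMSO library and NES at 2.09 FPKM (Aza/TSA) and 0.0667 FPKM (DMSO). Of 15 endoderm genes 3 were measured and 1 was higher, GSC at 3.02 FPKM (Aza/TSA) and 0.786 FPKM (DMSO). Of 12 spermatid genes 2 were measured and 1 was higher, the sperm ion channel CATSPER1 at 7.30 FPKM (Aza/TSA) and 0.468 FPKM (DMSO). Among 13 ionocyte and intercalated cell genes 2 were measured and 1 was higher, the proton pump subunit ATP6V1C2 at 2.26 FPKM (Aza/TSA) and 0.607 FPKM (DMSO). TUBB3, NES and GSC were within 2-fold after GC correction, and CATSPER1 and ATP6V1C2 were still higher. The endoderm gene GATA6, at 1.52 FPKM (Aza/TSA) and 2.77 FPKM (DMSO), was past 2-fold lower only after GC correction (-1.08), an uncertain call at this level. Of 12 T cell genes 3 were measured, CD3D higher at 1.33 FPKM against a listing at 0, IKZF2 lower at 0.587 and 2.92 FPKM in the Aza/TSA and DMSO libraries, and IKZF4 within 2-fold. CD3D and IKZF2 were within 2-fold after GC correction. Of 9 thymic epithelial genes 2 were measured, PAX9 lower at 9.90 FPKM (Aza/TSA) and 52.0 FPKM (DMSO) and CD40 higher at 2.28 FPKM (Aza/TSA) and 0.295 FPKM (DMSO). Of 10 ovarian genes 1 was measured, the activin antagonist FST, at 38.6 FPKM (Aza/TSA) and 6.10 FPKM (DMSO). Of 9 thyroid genes 2 were measured, and both lay within 2-fold on the log2(FPKM + 1) scale. NKX2-1 was at 1.11 FPKM (Aza/TSA) and 2.76 FPKM (DMSO), a log2 change of -0.83. After GC correction it was past 2-fold lower, at -1.60, which is uncertain at its low level.

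**Figure D5:**
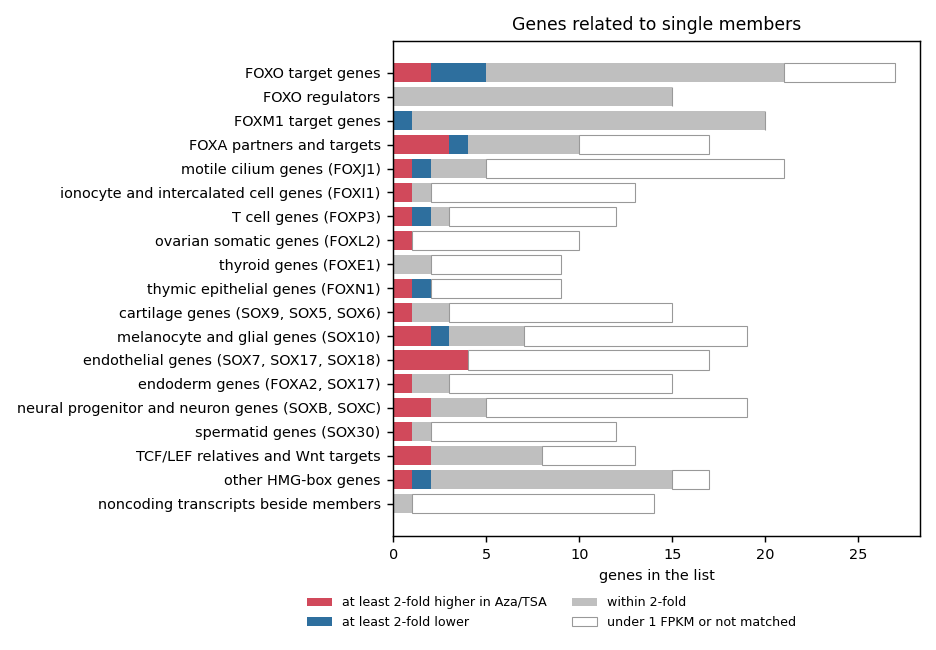
Number of genes in each list of targets, partners or lineage companions that were at least 2-fold higher (red), at least 2-fold lower (blue) or within 2-fold (grey) in the Aza/TSA library over the DMSO library, and under 1 FPKM in both or not matched (white). The FOXM1 targets and FOXO regulators are nearly all within 2-fold, and most lineage lists are mainly white.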

How the data were processed

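RNA of FaDu and UMSCC47 cells was sequenced from stranded mRNA libraries, 1 per group and 4 in all, and groups were taken from the labels. The authors deposited 1 table of FPKM, named so in its column headers. The submitters' processing notes name TopHat 1.3.2, Cufflinks 2.0.2 and the build hg19. Not given in the sources used here are the annotation, the filters, the scaling across libraries and whether strand was used in counting. Only the FaDu columns were used. Repeated symbols (45 rows) were summed. The change was log2((Aza/TSA FPKM + 1)/(DMSO FPKM + 1)), a scale that understates differences of low genes. Measured genes reached 1 FPKM in at least 1 of the FaDu libraries. No p-value is given, since groups have 1 library each. Transcript GC content and length came from the longest protein-coding transcript (otherwise the longest) of GENCODE release 29, which is on another build, so no coordinates of it were used. The trend was fitted by lowess (statsmodels 0.14.6, fraction 0.3) over genes that reached 5 FPKM in both FaDu libraries. GC values were found for all 28 measured members. The call rule and correction were tested on simulated data.

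Promoter sequences are from RefSeq on GRCh38.p14. A window was found for 48 of 68 members (70.6%) and for 65.5% of all measured genes, both under the 80% set as the lowest coverage for a comparison, so a comparison of promoter composition is void and is not given. The members, lists and rules were chosen with earlier results of these data known. Lists were written from general knowledge, and up to 4 measured genes with the widest change are named from each, together with genes a member's account turns on. CAT, RFX3 and the FOXA partners were named after their values were seen. Beside these members, 1 forkhead and 1 SOX gene are not reported here. Alternatives were a pseudocount of 0.1 or 5, no filter, a filter at 5 FPKM, TPM scaling, centring on the median of all genes, the highest row per symbol, and GC and length correction.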

Additional observations from a re-analysis of the deposited data

How the results depend on the processing

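As deposited, 3 members were higher, 2 lower and 1 (FOXJ1) reached 1 FPKM with Aza/TSA against less than 0.1 FPKM with DMSO, with a median log2 change of -0.14 over those measured. With a pseudocount of 0.1, 5 members were higher, 2 of them SOX genes, 4 were lower (all genes 21.7% and 8.72%) and the median was -0.16. With a pseudocount of 5, 1 member was higher (SOX15) and 1 lower (FOXA1; all genes 6.59% and 1.87%), 0 forkhead members were higher, and the median was -0.082. With a filter at 5 FPKM, 1 forkhead member was higher (FOXP4, with 15.8% of all genes higher) and the median was -0.023. Without a filter the median was 0.015, of the other sign and slightly above the 0 of all genes. With TPM scaling the median was 0.12, also of the other sign and slightly above the 0.10 of all genes. There 9 members were higher, 5 forkhead and 4 SOX, and 4 were lower (all genes 17.9% and 7.71%). With this scaling 3 members reached 1 with Aza/TSA against less than 0.1 with DMSO. All values are larger there by construction, so the pseudocount and filter weigh less. Centring on the median of all measured genes gave a median of -0.27. It left 3 members higher and 3 lower, SOX1 beside FOXA1 and FOXN3 (all genes 12.8% and 7.75%). After GC correction 0 members were higher (0 forkhead and 0 SOX genes), 6 were lower (all genes 7.41% and 4.26%), and the median was -0.41. After length correction 1 member was higher (FOXP4), 1 forkhead and 0 SOX genes (all genes 13.5%). With it 3 members were lower, FOXA1, FOXN3 and SOX1 (all genes 6.14%). SOX1 counted as measured only through the DMSO library, so its direction was fixed by the 1 FPKM limit. Summing or taking the highest row gave the same counts. GC correction moved the median of all measured genes by -0.11 and centring by -0.13. The direction of FOXA1, FOXN3, FOXJ1, FOXP4 and SOX15 held after GC and length correction. These members were picked for the size of their change, and the direction of FOXJ1 was fixed by the 1 FPKM limit. A pseudocount or filter cannot turn a direction. TPM scaling and centring shift members by too little to turn changes of this size, so they were no check of these 5. Of the 28 measured members 8 had the other sign after GC correction (FOXD1, FOXE1, FOXJ3, FOXK1, FOXK2, FOXL2, FOXM1 and FOXN2), and FOXK2 after centring. At low levels, as for FOXD1, FOXE1, FOXL2 and FOXJ1, the subtracted GC trend may be too large, so corrected signs and calls are uncertain there. No paired analysis was possible because each group has 1 library. Depth is unknown, so no interval is given for any FPKM. The planned comparison of promoter composition is void, because windows covered under 80% of the members and of all measured genes.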

Other observations

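Other genes with an HMG box, the domain of the SOX proteins, were mostly close between the libraries. Of 17 such genes 15 were measured, 1 at least 2-fold higher and 1 at least 2-fold lower, with a median log2 change of -0.23. The repressor CIC was at 11.5 FPKM in the Aza/TSA library and 4.47 FPKM in the DMSO library, BBX at 9.28 FPKM (Aza/TSA) and 19.7 FPKM (DMSO), the chromatin protein HMGB3 at 32.2 FPKM (Aza/TSA) and 17.9 FPKM (DMSO) and the ribosomal RNA transcription factor UBTF at 41.26 FPKM (Aza/TSA) and 21.999 FPKM (DMSO). Neither CIC nor BBX was past 2-fold after GC correction. Of 13 genes of the TCF/LEF family, whose members also carry an HMG box, and of Wnt signalling, 8 were measured and 2 were higher, TCF7 at 5.93 FPKM (Aza/TSA) and 2.26 FPKM (DMSO) and the feedback inhibitor AXIN2 at 1.51 FPKM (Aza/TSA) and 0.0443 FPKM (DMSO). AXIN2 counted as measured only through the Aza/TSA library, so it could not be called lower. Neither TCF7 nor AXIN2 was past 2-fold after GC correction, which is uncertain for AXIN2 because of its low level. Of 14 noncoding or neighbouring transcripts beside members, 2 were matched, C3orf72 at 1.75 and 2.29 FPKM in the Aza/TSA and DMSO libraries and LINC00261, listed at 0 in both.

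Among the 26 members that were under 1 FPKM but above 0 in both libraries, 9 had FPKM in a ratio of whole numbers up to 12, within 0.02%, against 0 of the 28 measured members above 0 in both. The ratio of the Aza/TSA to the DMSO library was 8 to 1 for FOXB1, 11 to 1 for SOX18, 3 to 1 for FOXA2 and SOX17, 5 to 2 for FOXI3, 2 to 1 for SOX6, 7 to 6 for FOXN1, 7 to 9 for SOX21 and 2 to 3 for FOXF1. Read numbers are not given in the table, and multiples of these numbers would give the same ratios. The share of such ratios over all genes under 1 FPKM was not counted, so they are not a trait of these members.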
